A study of Arabidopsis thaliana with 6 samples.

Results

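The wax alkane and wax ester genes described here are 9 genes followed through 6 root libraries of Arabidopsis thaliana: the enzyme genes CER1, CER1-L1, CER3, MAH1 and WSD1 and the regulator genes MYB94, MYB96, SHN1 and DEWAX. They were chosen by gene identifier for their known place in the formation of wax alkanes and wax esters, and all 9 identifiers were found among the 32833 in the files. Of these 9, 5 had enough counts to be tested, and the other 4 were at or near 0. RNA came from the uppermost 2 cm of the primary root of 18-day-old plants on half-strength MS plates at 22 °C in constant light, without treatment. One group was the wild type Col, and the other a line labelled myb68 myb84, after a pair of related R2R3 MYB transcription factor genes. Each group had 3 biological replicates, and each replicate pooled at least 40 plants. The sources used here do not name the alleles.

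Cuticular waxes are mixtures of very-long-chain lipids that seal the shoot epidermis, and related chains occur among the waxes held in root suberin, the barrier lipid of cork and endodermis. Fatty acids are first elongated in the endoplasmic reticulum. In one branch CER3 and CER1 act together, with a cytochrome b5, to turn acyl chains into alkanes, and MAH1, a cytochrome P450 of the CYP96A family, oxidizes alkanes to secondary alcohols and ketones. In the other branch the chains are reduced to primary alcohols, which the acyltransferase WSD1 joins with acyl groups to wax esters. MYB94 and MYB96 are related R2R3 MYB factors that activate wax genes, SHN1 is an AP2/ERF factor that activates wax and cutin genes, and DEWAX is an AP2/ERF factor that represses wax genes in the dark.

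MYB94 and MYB96 are known as close relatives, and their upstream sequences, shown here because they set this pair apart among the members, held a nearly identical stretch. The 250 bases before the annotated gene start were read for each member from the TAIR10.1 genome, and the longest run of identical bases on the same strand was found for each of the 36 pairs of members. It was 18 bases for MYB94 and MYB96, against a median of 9 and a maximum of 13 for the other pairs. Extended without gaps, 58 of 65 bases were identical. In the lines below, capitals mark the 7 bases that differ between the genes. The MYB94 stretch lies at chr3:17541449-17541513 and the MYB96 stretch at chr5:25081142-25081206, both on the minus strand.
MYB94: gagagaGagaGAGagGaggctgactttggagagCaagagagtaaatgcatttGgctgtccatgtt
MYB96: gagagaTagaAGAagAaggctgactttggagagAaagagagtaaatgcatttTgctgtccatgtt
The run of 18 bases, aagagagtaaatgcattt, was found on either strand in 2 of the 27443 upstream windows of this length before protein-coding genes, those of MYB94 and MYB96. The stretch ended 142 bases before the start of MYB94 and directly before that of MYB96.

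CER1 and CER1-L1 stand next to each other on chromosome 1, with 388 bases and no annotated gene between them, and the coding stretch in which they are most alike is shown because reads of both genes have to be told apart there. Of 116 bases within a single coding exon of each gene, 106 (91.4%) were identical, with at most 32 in a row. Capitals mark the 10 bases that differ. The stretch lies at chr1:419779-419894 in CER1 and at chr1:415846-415961 in CER1-L1, both on the plus strand.
CER1: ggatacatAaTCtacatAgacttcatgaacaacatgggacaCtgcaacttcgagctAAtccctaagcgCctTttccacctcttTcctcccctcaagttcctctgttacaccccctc
CER1-L1: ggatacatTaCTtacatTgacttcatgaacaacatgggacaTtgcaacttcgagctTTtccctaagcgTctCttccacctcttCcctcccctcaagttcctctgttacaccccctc
No exon window of 50 bases of CER1 or CER1-L1 occurred anywhere else in the genome. The same held for the other members apart from MYB94 and MYB96, where 4 windows each were found elsewhere (99.8% unique in both genes). No annotated exon of another gene overlapped those of any member.

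The upstream windows of CER1 and CER3 are shown because their products work together while their transcripts had unlike fold changes, given with the values further on. The CER1 window is chr1:418166-418415 and the CER3 window chr5:23419934-23420183, both on the plus strand. The motifs searched, 3 in all, were looked for on both strands: GCCGCC, the core of the GCC box bound by ERF factors, TAACTA, an element bound by MYB factors, and ACGTG, the core of the abscisic acid response element. Capitals mark a match.
CER1: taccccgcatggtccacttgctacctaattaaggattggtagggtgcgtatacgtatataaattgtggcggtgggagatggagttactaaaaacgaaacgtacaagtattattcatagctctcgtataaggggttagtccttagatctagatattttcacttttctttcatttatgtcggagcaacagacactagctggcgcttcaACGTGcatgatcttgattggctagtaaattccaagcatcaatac
CER3: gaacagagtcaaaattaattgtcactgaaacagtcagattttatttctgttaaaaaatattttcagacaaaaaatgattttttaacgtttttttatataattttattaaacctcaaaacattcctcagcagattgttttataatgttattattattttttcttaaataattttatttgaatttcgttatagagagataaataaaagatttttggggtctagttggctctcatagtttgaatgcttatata
The CER1 window held 1 ACGTG, and the CER3 window none of the searched letters. Among the other members MAH1 and DEWAX held 1 TAACTA each, and no member window held GCCGCC. Of all 27443 windows of this length, 22.9% held ACGTG, 20.6% held TAACTA and 1.87% held GCCGCC. These matches describe letters in 1 window per gene and are not measured binding sites.

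Total counts ran from 19446419 to 55907128 per library. Levels are CPM, counts scaled to library size and with TMM factors, given for WT 1, 2 and 3 and then for myb68 myb84 1, 2 and 3. Differences are log2 fold changes of myb68 myb84 over wild type from edgeR's quasi-likelihood test, and a gene was called changed at a Benjamini-Hochberg adjusted p under 0.05 over all 20941 tested genes. As a check of the label, MYB84 averaged 9.92 ± 2.69 CPM over the wild-type libraries and 6.0 ± 1.14 CPM over those labelled myb68 myb84 (SD, n = 3 each; edgeR adjusted p = 0.0442). The fitted MYB84 level was still 61.6% of wild type, so this is a weak check. MYB68 had 53.7 ± 7.42 and 67.8 ± 7.03 CPM (edgeR adjusted p = 0.0613), so its transcript level did not check the label. All 8 root markers were detected and tested, and edgeR called 3 of them higher and 2 lower. Over all tested genes 8.30% were called, 4.66% as higher and 3.65% as lower. The xylem transporter genes NRT1.5 and PHO1 and the endodermal regulator gene SCR rose by 0.74, 0.36 and 0.44 on the log2 scale. The suberin genes CYP86A1 and GPAT5 fell by 0.55 and 0.50 (edgeR adjusted p = 0.00108 and 0.0104). In bulk root samples, fewer cells of a type and less RNA per cell cannot be told apart.

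Of the 9 wax genes, 1 fell in myb68 myb84, the alkane-forming enzyme gene CER1, while 4 tested genes did not pass. CER1 (AT1G02205, chromosome 1, 418416 to 422579) had 12.8, 9.55 and 14.9 CPM in the wild-type libraries. In the myb68 myb84 libraries it had 1.74, 2.37 and 5.19 CPM. All 3 mutant libraries were thus below all 3 wild-type libraries, as for 13.2% of all tested genes, and myb68 myb84 3 was the highest of the mutants. The means were 12.4 ± 2.71 and 3.10 ± 1.83 CPM (SD, n = 3 each), and the log2 fold change was -1.96 with a standard error of 0.40 and a 95% interval from -2.93 to -0.99 (edgeR adjusted p = 0.0341). This corresponds to 25.7% of the wild-type level. Among all tested genes 8.30% were called in either direction, 3.65% as lower and 4.66% as higher.

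The CER1 call depended on single libraries. It ended without WT 1 (edgeR adjusted p = 0.0831), WT 2 (0.0507), WT 3 (0.0852) or myb68 myb84 2 (0.125), as it did with no low-count filter (0.0908). The call held without myb68 myb84 1 (edgeR adjusted p = 0.0337) or 3 (8.4e-05). The difference itself stayed between -2.60 and -1.67 in the 6 fits with a library left out. In such fits the calls over all tested genes also fell, from 1739 to between 1024 and 1670. DESeq2 and limma-voom called CER1 with adjusted p = 0.00146 and 0.00192.

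CER3, the partner of CER1 in alkane formation, was the most abundant of the 5 enzyme transcripts and had a smaller fold change. CER3 (AT5G57800, chromosome 5, 23420184 to 23424117) had 16.5, 14.2 and 17.6 CPM in the wild-type libraries. The mutant libraries had 13.2, 11.8 and 13.2 CPM. The groups did not overlap, as for 27.2% of all tested genes (13.2% with the mutant lower and 14.1% with it higher). The log2 difference was -0.34 with a standard error of 0.11 and a 95% interval from -0.57 to -0.10, and it did not pass (edgeR adjusted p = 0.0841). It passed without WT 2 (edgeR adjusted p = 0.0448), the one fit with a library left out in which CER3 was called.

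The pair was also compared within each library. The ratio of CER1 to CER3 counts was 0.775, 0.671 and 0.850 in the wild-type libraries and 0.132, 0.201 and 0.394 in the mutant libraries. All wild-type ratios were above all mutant ratios. On the log2 scale the mean ratio was -0.39 ± 0.17 in wild type and -2.19 ± 0.80 in the mutant (SD, n = 3 each). The exact two-sided permutation test gave p = 0.1, the smallest that 3 against 3 libraries allow, for a comparison chosen after the values were seen. Across the 6 libraries CER1 spanned an 8.57-fold range of CPM and CER3 a 1.49-fold range.

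**Figure D1:**
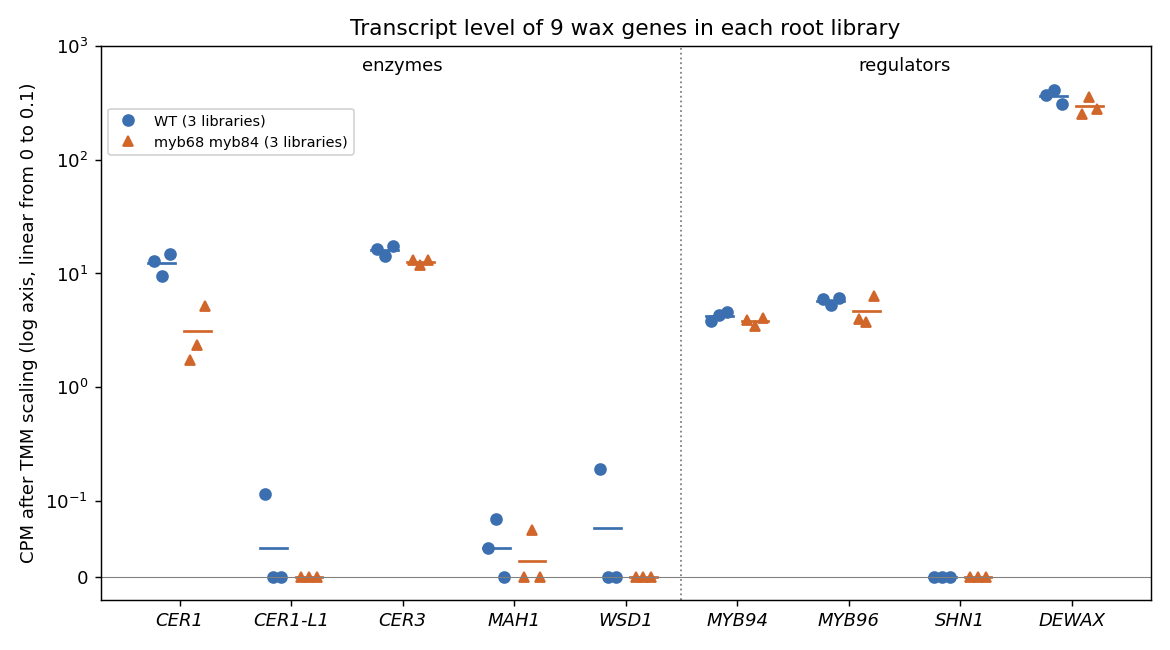
CPM after TMM scaling of the 9 wax genes on an axis that is logarithmic above 0.1 and linear below, with circles for the 3 wild-type libraries, triangles for the 3 myb68 myb84 libraries and a bar at each group mean. CER1 separates the genotypes most among the detected members, while CER1-L1, MAH1, WSD1 and SHN1 lie at or near 0 and DEWAX lies at 252 CPM or above in every library.

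The other 3 enzyme genes were at or near 0 in both genotypes. CER1-L1 (AT1G02190, chromosome 1, 415074 to 418027), a relative of CER1 with alkane-forming activity, had 6 counts in WT 1 and 0 in the other 5 libraries. CER1 therefore supplied 99.1% of the summed counts of the pair in WT 1 (exact binomial 95% interval 98.1% to 99.7%, counting error only) and all of them elsewhere. With the share at 100% in 5 of the 6 libraries, no test of it could separate the genotypes. WSD1 (AT5G37300, chromosome 5, 14767426 to 14770396), the wax ester synthase, had 10 counts in WT 1 and 0 elsewhere. MAH1 (AT1G57750, chromosome 1, 21383812 to 21385709), the midchain alkane hydroxylase, had 2 counts in each of WT 1, WT 2 and myb68 myb84 2 and 0 in the other libraries. A count of 0 allows up to 3 counts, from 0.0535 CPM in myb68 myb84 3 to 0.152 CPM in WT 3, and a difference between genotypes was not detectable at this depth.

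WT 1 held every count of WSD1 and CER1-L1, while it held 22.8% of the counts of all genes in the 6 libraries. Of the 14 genes among the members, the wax pathway and the shoot epidermis markers that had counts but too few to be tested, 6 had their highest CPM in WT 1, 4 in WT 2 and 2 in WT 3. The remaining genes had it in myb68 myb84 2 or 3. WT 1 held 20 of 26 counts of KAT1, a guard cell potassium channel gene, but 12 of 30 of FAMA and 8 of 22 of SPCH, both stomatal regulators. It held 12 of 14 counts of WSD3 but 4 of 27 of WSD8. The part of shoot tissue in these counts was not tested.

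Of the regulators, none of the 3 tested passed, and the activators MYB94 and MYB96 stayed at low levels in both genotypes. MYB94 (AT3G47600, chromosome 3, 17539289 to 17541307) had 3.80, 4.30 and 4.57 CPM in the wild-type libraries. In those of the mutant it had 3.90, 3.43 and 4.03 CPM. The groups overlapped, and the log2 difference was -0.14 with a 95% interval from -0.52 to 0.23 (edgeR adjusted p = 0.698).

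MYB96 (AT5G62470, chromosome 5, 25078991 to 25081141), which mediates abscisic acid responses of wax synthesis, had 5.95, 5.33 and 6.10 CPM in the wild-type libraries. The mutant libraries had 3.98, 3.74 and 6.33 CPM. The other 2 mutant libraries, 1 and 2, were below all wild-type libraries, and myb68 myb84 3 was above them all. The log2 difference was -0.29 with a 95% interval from -0.73 to 0.15 (edgeR adjusted p = 0.446). Without myb68 myb84 3 it was -0.58 and did not pass either (edgeR adjusted p = 0.115). The same library had the highest CER1 level among the mutants.

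DEWAX (AT5G61590, chromosome 5, 24764256 to 24765511), the repressor, was by far the most abundant member. The wild-type libraries had 372, 410 and 307 CPM. Those of the mutant had 252, 359 and 279 CPM. The groups overlapped, since WT 3 lay below myb68 myb84 2, and the log2 difference of -0.29 had a 95% interval from -0.61 to 0.03 (edgeR adjusted p = 0.274). SHN1 (AT1G15360, chromosome 1, 5283268 to 5284736) had 0 counts in all 6 libraries.

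Over the tested members edgeR called 1 lower and 0 higher, DESeq2 and limma-voom gave the same numbers, and at an unadjusted p under 0.05 there were 2 lower and 0 higher. At that unadjusted threshold 22.0% of all 20941 tested genes passed, 2261 of them lower and 2354 higher. The log2 fold change was below 0 for all 5 tested members and its median was -0.29, against -0.0026 over all tested genes, of which 50.5% were negative. One call among 5 tested genes is a share of 20%, and a single gene makes it up. Over all tested genes edgeR called 8.30%, with 3.65% as lower.

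Per kilobase of exon, merged over isoforms, the order in wild type was DEWAX, CER3, CER1, MYB96 and MYB94, with levels of 289 ± 41.5, 6.22 ± 0.661, 3.46 ± 0.755, 3.24 ± 0.228 and 2.23 ± 0.206 CPM per kb (SD, n = 3). The ranges of CER1 and MYB96 overlapped, while each other neighbouring pair was separate. In myb68 myb84 the order was DEWAX, CER3, MYB96, MYB94 and CER1, with CER1 at 0.863 ± 0.511 CPM per kb. There all 3 CER1 values (up to 1.44) were below all MYB94 values (from 1.81), and those of MYB96 (2.09 to 3.54) overlapped with those of MYB94 (up to 2.13). With the median transcript length in place of merged exons, CER1 in wild type was at 4.98 ± 1.09 CPM per kb and no longer overlapped with MYB96 (3.53 ± 0.249), but its range (3.82 to 5.98) overlapped with that of CER3 (5.50 to 6.79).

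Other genes of the wax pathway place these values. Of 57 listed genes 40 were tested, and 12 fell and 1 rose in myb68 myb84 (32.5% called, against 8.30% of all tested genes), with a median log2 fold change of -0.29. The list was chosen with earlier results of these data known, so this contrast is not independent support. Without WT 1 or without myb68 myb84 2 there were 8 calls, and DESeq2 called 17 lower and 1 higher. Over all 20941 tested genes DESeq2 called 1013 lower and 1205 higher, more than edgeR with 764 and 975. For limma-voom the numbers were 819 lower and 1067 higher. Whether the chains made by the precursor genes go to wax or to other lipids such as suberin was not tested. The suberin genes CYP86A1 and GPAT5, which are outside the list, fell by 0.55 and 0.50 on the log2 scale. They were the 2 of 8 root markers that edgeR called lower, and 3 were called higher. Within the wax pathway list, the genes that supply precursors made up most of the falls. Of 16 such genes, all tested, edgeR called 7 lower and 0 higher, as did DESeq2 with 9 and 0 and limma-voom with 8 and 0, and 11 were lower and 0 higher at an unadjusted p under 0.05, where 22.0% of all tested genes passed in either direction.

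Among the precursor genes the condensing enzyme CER6, which makes the long acyl chains used by CER1 and CER3, fell from 20.6 ± 2.59 to 7.10 ± 2.28 CPM (log2 -1.53, edgeR adjusted p = 0.00244). It had 19.7, 23.5 and 18.6 CPM in the wild-type libraries and 4.93, 6.89 and 9.48 CPM in those of the mutant. As for CER1, and for 13.2% of all tested genes, CER6 was lower in every mutant library than in any wild-type library. Among the mutant libraries it was highest in myb68 myb84 3. Its close relative CER60 fell by 0.83 on the log2 scale, and KCS20, KCS1, the ketoacyl reductase KCR1 and the acyl-CoA synthetases LACS1 and LACS2 fell by 0.58, 0.40, 0.30, 0.52 and 0.37. CER26 and CER2, which help in the last elongation steps, stood at -0.94 and -1.36 and did not pass (edgeR adjusted p = 0.0535 and 0.139). The most abundant precursor genes that did not pass were ACC1 and CER10, at -0.11 and -0.32. The calls of LACS1 ended without any 1 of the 6 libraries, those of KCR1 and LACS2 without WT 1 (adjusted p = 0.0822 and 0.0855), myb68 myb84 1 (0.0781 and 0.0790) or myb68 myb84 2 (0.119 and 0.108), and that of LACS2 also without WT 3 (0.0620).

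The alcohol branch and the electron donor gave 1 call among 2 tested genes. Over all tested genes 8.30% were called, and with so few genes this count and that of the WSD1 relatives say little. CB5-B, a cytochrome b5 known to work with CER1, fell by 0.45 (38.2 ± 2.83 to 27.9 ± 3.00 CPM, n = 3 each; edgeR adjusted p = 0.00954, and 0.0582 without WT 1). The alcohol-forming reductase CER4 stood at -0.83 and did not pass (edgeR adjusted p = 0.0885). Of the relatives of WSD1, 4 of 10 were tested and WSD7 fell by 0.42, from 93.4 ± 4.23 to 69.7 ± 6.04 CPM (n = 3 each; edgeR adjusted p = 0.00482). WSD6 and WSD4 stood at -0.05 and 0.18 and did not pass. Thus WSD7 and WSD6 carried most transcript of this family in the root (CPM, without correction for length), while WSD1 was near 0.

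Of the relatives of MAH1, 4 of 11 were tested and edgeR called none, nor did DESeq2 or limma-voom, with 0 at an unadjusted p under 0.05. Over all tested genes edgeR called 8.30%, and 22.0% had an unadjusted p under 0.05, so 0 of 4 says little about the family. CYP96A4 (12.8 ± 0.484 and 11.5 ± 0.269 CPM) and CYP96A12 (8.72 ± 1.76 and 9.22 ± 1.89 CPM) were the most abundant. For export, the transporter CER5 and the lipid transfer protein LTPG1 fell by 0.49 and 0.51, and LTPG2 and ABCG11 did not pass at -0.51 and -0.32. The CER5 call ended without WT 1 (edgeR adjusted p = 0.101), WT 3 (0.0672), myb68 myb84 1 (0.102) or 2 (0.0926), and that of LTPG1 without myb68 myb84 2 (0.0515). LTPG1, ABCG11, CB5-B, WSD4, CER10 and CER2 overlap annotated neighbours, and reads of such pairs cannot be told apart without strand.

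Among 14 further regulators, 10 were tested, and edgeR called 1 lower and 1 higher, where 8.30% of all tested genes were called. WRI4, an AP2 factor that activates wax genes in stems, fell by 0.50 and the homeodomain gene HDG1 rose by 0.45 (edgeR adjusted p = 0.00957 and 0.0418). The HDG1 call ended in limma-voom (adjusted p = 0.0554) and without each single library but WT 1 (edgeR adjusted p up to 0.120). The ubiquitin ligase gene CER9 and DEWAX2, a relative of DEWAX, were the most abundant of those that did not pass, at 0.07 and -0.29 (edgeR adjusted p = 0.629 and 0.0649). MYB30, which activates chain elongation genes, stood at -0.06 and did not pass. SHN3 had 0 counts and SHN2 had 2, so none of the SHN genes was detected above the floor of 3 counts. WRI4, DEWAX2 and SHN2 overlap annotated neighbours.

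**Figure D2:**
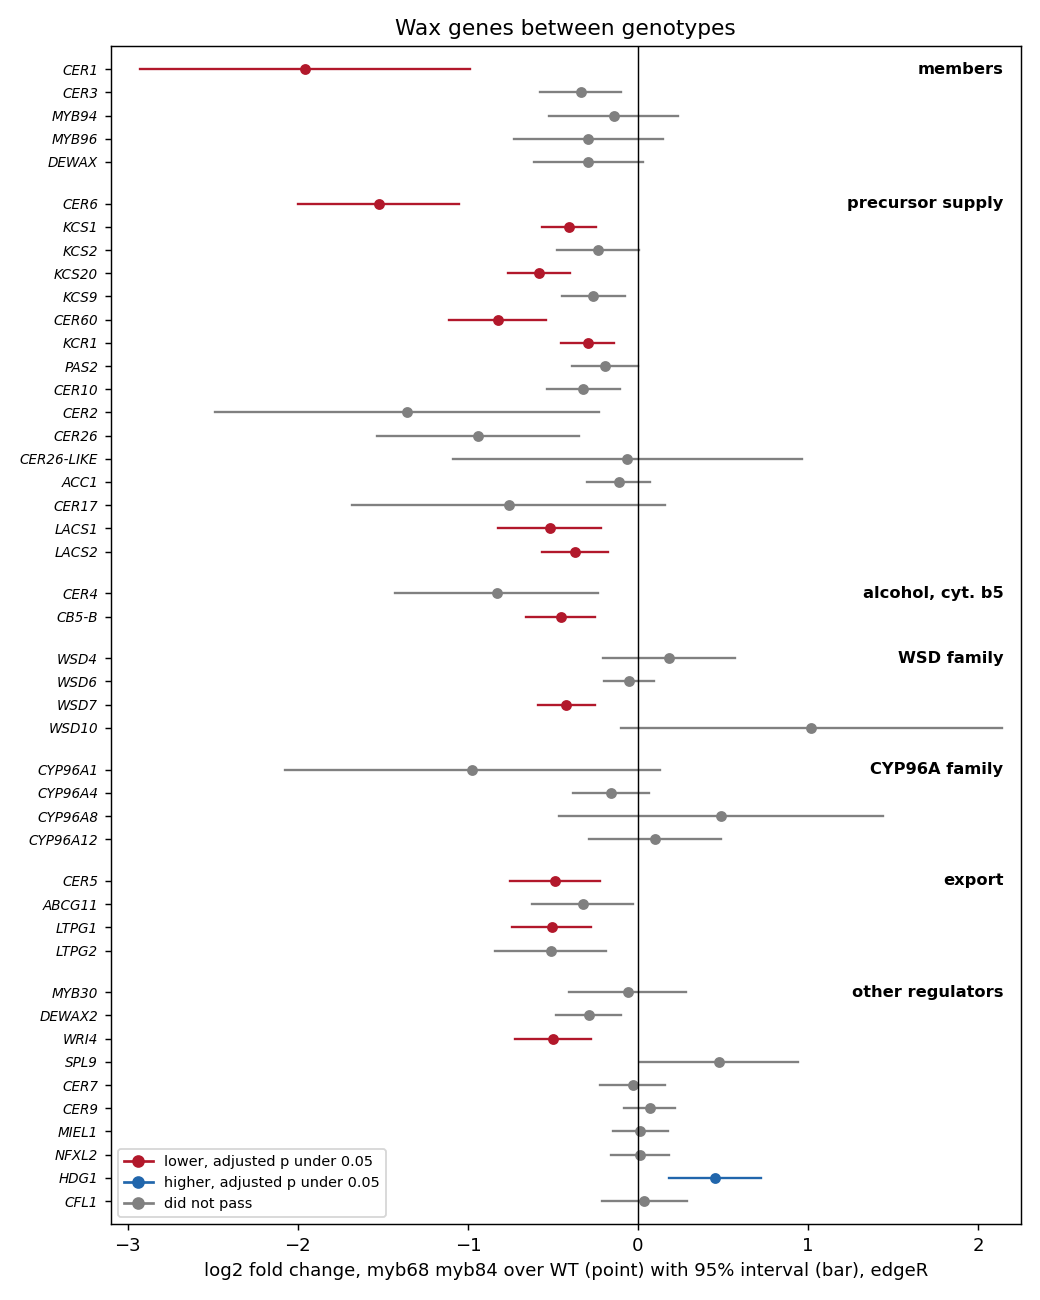
Log2 fold change of myb68 myb84 over wild type (points) with 95% intervals (bars) from edgeR for the 5 tested members and 40 tested genes of the wax pathway, grouped by role. Red marks genes lower at an adjusted p under 0.05, blue the gene that was higher and grey the genes that did not pass; CER1 at -1.96 has the lowest fold change and CER6 follows at -1.53.

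The tested markers of the shoot epidermis, where wax genes are best known, also had lower mean levels in myb68 myb84. Of 8 such markers 5 were tested, and PDF1, FDH and LTP1 fell by 0.70, 0.57 and 1.95 on the log2 scale while ATML1 and PDF2 did not pass (-0.46 each). Of all tested genes 3.65% were called lower and 4.66% higher. The summed level of the 8 genes was 100.8 to 116 CPM over the wild-type libraries and 63.8 to 67.6 CPM in the mutant. In myb68 myb84 1, 2 and 3 the sum was 67.3, 63.8 and 67.6 CPM. Most of it came from FDH (31.1, 27.8 and 28.9 CPM) and PDF1 (19.3, 21.7 and 21.5 CPM). In the same libraries LTP1 had 2.99, 2.87 and 4.97 CPM and CER1 1.74, 2.37 and 5.19 CPM, both highest in myb68 myb84 3. The stomatal genes SPCH, FAMA and KAT1 had at most 0.386 CPM in any library. Of 7 markers of green tissue edgeR called 3 higher and 0 lower, and DESeq2 and limma-voom each called 5 higher and 1 lower. Their summed level was 775 to 1233 CPM over the wild-type libraries and 1540 to 1766 CPM in the mutant. RBCS2B, a Rubisco small subunit gene, had the opposite sign, with 12.2 ± 8.99 and 2.29 ± 0.544 CPM (n = 3 each, log2 -2.45, edgeR adjusted p = 0.137). Its groups did not overlap, as for 27.2% of all tested genes. The part of either tissue in the CER1 difference was not tested.

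The genes whose pattern over the 6 libraries was nearest to that of CER1 included lipid transfer protein genes. Nearness was the root mean square distance of log2 CPM, each gene centred on its mean, among 17988 other tested genes with a mean of at least 2 CPM. The 5 nearest to CER1 were AT3G45680, a major facilitator superfamily gene, LTP3, GolS4, a galactinol synthase gene, LTP1 (LP1 in the annotation, and one of the epidermal markers) and CYP710A3, at distances of 0.33 to 0.43 against a median of 1.17. CER3 was nearest to AT1G09200, a histone H3.1 gene of a near-identical family, the kinesin gene ATK1, the wax transporter gene ABCG11, AT5G12950 and KASI, a fatty acid synthase component of plastids, at 0.021 to 0.032 against a median of 0.23. Between CER1 and CER3 the distance was 1.00, and the other members stood 0.93 to 1.09 from CER1, since its differences were larger than theirs. Distances to a gene with small differences, such as CER3, are small for many genes.

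**Figure D3:**
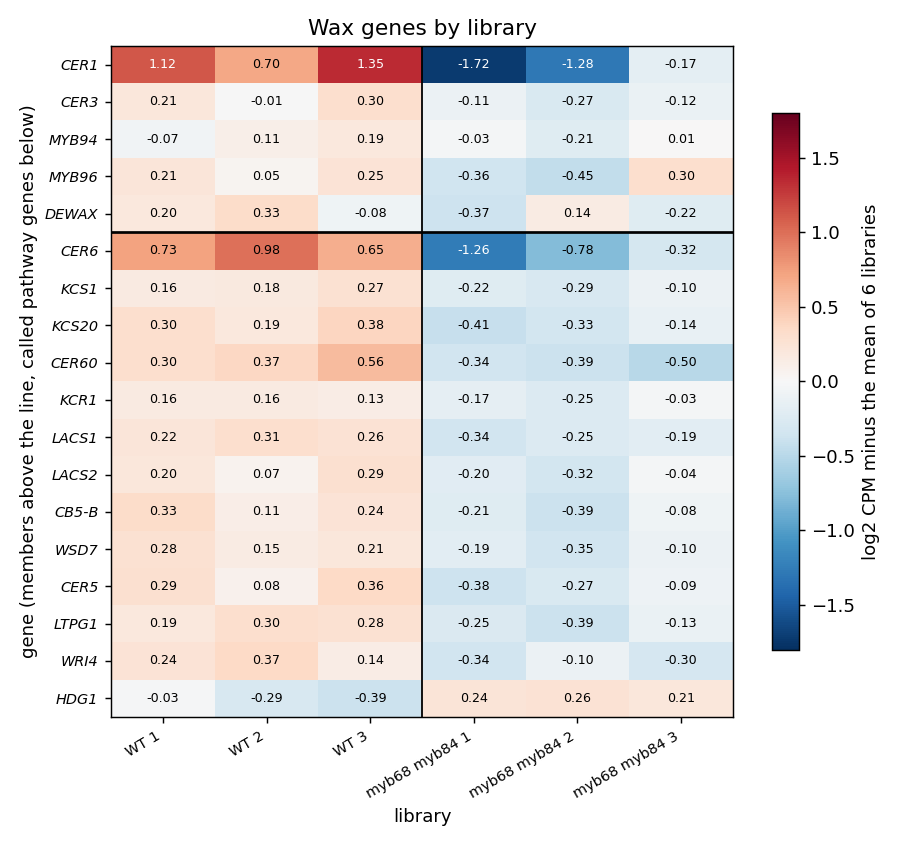
Log2 CPM (prior count 2) of the 5 tested members, above the line, and of the 13 called wax pathway genes, below it, in each library, as the difference from the mean of the gene over 6 libraries. CER1 and CER6 are lowest in myb68 myb84 1 and least lowered in myb68 myb84 3, MYB96 is above its mean in that library, and HDG1 is the gene that rises.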

How the data were processed

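RNA-seq counts were analysed for 3 wild-type and 3 myb68 myb84 libraries. The authors deposited raw counts per gene, 1 file per library. Build TAIR10 and the tools featureCounts, HISAT, DESeq2 and Trim Galore stand in the submitters' processing notes. Their versions, the strand setting and the treatment of multiply matching reads were not given in the sources used here. Groups came from the sample titles. The whole table was tested with edgeR 4.0.16 in R 4.3.3 (quasi-likelihood F test, robust, TMM scaling, filterByExpr with minimum count 10, Benjamini-Hochberg, threshold 0.05). Standard errors were taken from the fold change and its F statistic. Alternatives were DESeq2 size factors, upper-quartile scaling, no low-count filter, DESeq2 1.42.0, limma-voom (limma 3.58.1), a replicate block and each library left out. After the fit, the same edgeR steps were run on simulated counts with known changes. These were built from the means of that fit and the dispersion typical of each level. Spread particular to a gene, such as that of CER1, was left out, so the simulation does not bear on its call. Positions and sequences came from RefSeq's TAIR10.1 genome and annotation (blastn 2.17.0 for CER1 and CER1-L1). Transcript levels per kb used exon lengths merged over isoforms. The members and gene lists were chosen with earlier results of these data known. Named genes were the members, MYB68 and MYB84, each called pathway gene, the 2 most abundant genes not called per group, and the 5 genes nearest in pattern to CER1 and CER3; other genes were named after their values were seen.

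Among gene values from 1 to 10, between 77.0% and 81.6% were even numbers in each library, against 52.6% to 56.6% of values from 101 to 200. Whether single counts are independent was not tested, and floors and intervals on counts cover counting error only.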

Additional observations from a re-analysis of the deposited data

How the results depend on the processing

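With each library left out in turn, edgeR called 1024 to 1670 genes (1739 with all libraries), 0 to 1 wax members and 8 to 13 wax pathway genes. The log2 fold change of CER1 ran from -2.60 to -1.67 and that of CER3 from -0.41 to -0.27 in these fits. With no low-count filter 0 members were called, and CER1 stood at -1.95 (adjusted p = 0.0908); the cause was not tested. DESeq2 size factors, upper-quartile scaling, DESeq2 and limma-voom kept CER1 as the one member called. The deviations of same-numbered libraries correlated at -0.0059, 0.024 and 0.084. WT 1 and WT 2 correlated best with another number, and WT 3 with its own (0.084). These small correlations do not settle whether replicate numbers pair the libraries, and a shared batch was not tested. With the replicate block, edgeR called 2069 genes, and CER1 stood at -2.10 (adjusted p = 0.000499). With the median transcript length, chosen after seeing the data, mean levels over all libraries were 3.11 in place of 2.16 CPM per kb for CER1, 2.33 in place of 2.11 for MYB94 and 3.19 in place of 2.93 for MYB96. The 3 libraries per genotype limit what could pass, and 4 of the 9 members had too few counts to test.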
